A study of Mus musculus with 9 samples.

Results

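Interferon response genes were examined as a set of 33 genes chosen by symbol, of which 31 were among the 21878 gene symbols of the count table. Mx1 and Mx2 were not analysed here. The values come from mouse hepatocytes of the group WT-GFP, from wild-type C57BL/6 mice. The cells had been turned into liver progenitors with growth factors and small molecules, transduced with a GFP lentivirus, matured again for 3 weeks and then exposed to 100 µM copper chloride for 24 hours. The treatment field of the labels gives the copper figure in mM, and the growth protocol names an ATP7B virus for the wild-type cells, where titles and design text name GFP. The series also has cells of Atp7b knockout mice that received either an ATP7B virus (KO-ATP7B) or the GFP virus (KO-GFP), with 3 samples in each of the 3 groups and copper in all 9 samples. Only 2 columns of the count table, WT-GFP replicates 1 and 2, could be tied to a sample, through files of those samples that carry the same number. The order of the columns would place the other 7, but order is not a label. Those columns were not used, and no genotype or vector is compared.

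The 2 libraries held 18532457 and 17821682 counts. Each level is given in FPKM, a count scaled to library size and gene length, as deposited by the authors. The division by length allows levels of different genes to be compared. Where a gene has no counts, up to 3 counts remain possible, or 0.162 and 0.168 CPM (counts scaled to library size only) in replicates 1 and 2. Of 12 hepatocyte markers 7 reached 10 FPKM, with Alb at 929.6 and Fgb at 633 FPKM, and of 8 progenitor and biliary markers 5 did, with Cd24a at 649 and Spp1 at 604 FPKM. Markers of immune cells were mixed. Adgre1, Clec4f and 5 other macrophage markers of 12 had no counts, while Cd68 was at 17.1, Cd14 at 14.5 and Csf1r at 2.15 FPKM. The plasmacytoid dendritic cell markers Siglech and Ccr9 had none, and the highest of that list were Bst2, itself a member here, and Cox6a2 at 1.71 FPKM. No counts were seen for 10 of the 12 genes in the lymphocyte list, while Cd79a had 1 count in replicate 1. Ptprc, in that list but not specific to lymphocytes among immune cells, had 2 counts in replicate 2. Endothelial markers were led by Egfl7 (2.53 FPKM) and Kdr (0.417 FPKM), and stellate cell markers by Reln (1.10 FPKM) and Dcn (0.169 FPKM). In such bulk samples, fewer cells that express a gene and less RNA per cell cannot be told apart.

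Interferons are secreted proteins that cells release when sensors in the cytosol or endosome detect foreign nucleic acid. Type I interferons bind the receptor IFNAR, whose kinases JAK1 and TYK2 phosphorylate STAT proteins, STAT2 among them. STAT2 and IRF9 are subunits of the complex ISGF3, which binds the interferon-stimulated response element (ISRE) in front of antiviral genes. Interferon gamma has a receptor of its own, and genes that respond to it often carry the GAS element. Hepatocytes respond to both, and many of the same genes keep a low basal level without added interferon.

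The interferon response genes were detected throughout but mostly at low or moderate levels. All 31 members had counts in both libraries. Only 6 reached a mean of 10 FPKM, 18 lay between 1 and 10 FPKM and 7 were below 1 FPKM. The members' median was 3.45 FPKM (3.71 and 3.23 FPKM in replicates 1 and 2), against 5.66 FPKM over all 15545 symbols with a count. Of the members 19.4% reached 10 FPKM, against 38.1% of these symbols, and 22.6% of the members were below 1 FPKM, against 31.3% of the symbols. Over all 21878 symbols, including those without counts, the median was 0.782 FPKM. Of these, 27.1% reached 10 FPKM and 51.2% were below 1 FPKM. The share at 10 FPKM was thus smaller among the members than in either background. The members' median lay below that of the symbols with a count and above that of all symbols. The order of the shares below 1 FPKM turned with a minimum mean of 10 counts, at 5 of 29 members against 13.2% of symbols. These shares describe the 2 libraries and carry no test.

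**Figure D1:**
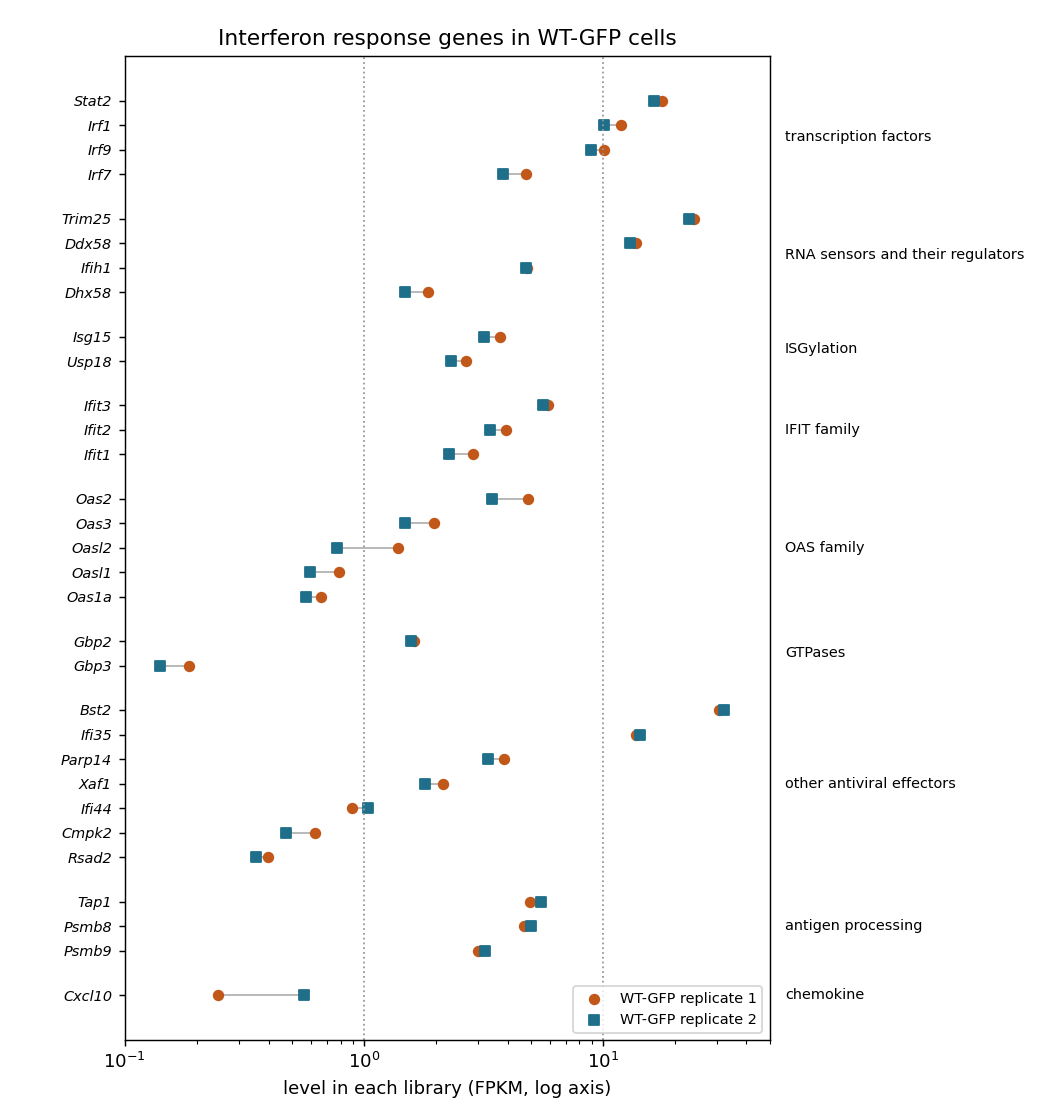
Level of each of the 31 members in FPKM on a log axis, with a circle for WT-GFP replicate 1 and a square for replicate 2, grouped by role. Dotted lines mark 1 and 10 FPKM. Bst2, Trim25, Stat2, Ifi35, Ddx58 and Irf1 lie at or right of 10 FPKM in both libraries, and the OAS genes spread from Oas2 at 4.17 FPKM down to Oas1a at 0.620 FPKM.

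The highest member was Bst2, which encodes tetherin, a membrane protein that holds budding enveloped viruses at the cell surface. Bst2 (chromosome 8, 71534255 to 71537456, minus strand, GRCm38, protein-coding) was at 30.7 and 32.2 FPKM in replicates 1 and 2, a mean of 31.4 ± 1.07 FPKM (SD, n = 2), above 85.1% of the symbols with a count. Trim25, the ubiquitin ligase that modifies the RNA sensor RIG-I, followed at 24.1 and 23.1 FPKM. Then came Stat2 at 17.8 and 16.5 FPKM. The ranges of these 3 genes did not overlap with one another or with the next genes in the order. Ifi35, an interferon-induced leucine zipper protein, was at 13.8 and 14.3 FPKM, and Ddx58, which encodes RIG-I itself, at 13.8 and 13.0 FPKM, so that this pair lay side by side. The values of Irf1 (11.9 and 10.1 FPKM) and Irf9 (10.1 and 8.96 FPKM) met at their ends, although Irf1 was the higher in each library. Irf1 and Irf9 lay just above and just below 10 FPKM by their means.

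The transcription factors of the response were all present. Stat2 (chromosome 10, 128270559 to 128292849, plus strand), a subunit of ISGF3, averaged 17.1 ± 0.943 FPKM (SD, n = 2). Irf9, the DNA-binding subunit of ISGF3, averaged 9.55 ± 0.836 FPKM. Both lay above the median of the detected genes. Irf1, a factor induced mainly by interferon gamma, averaged 11.0 ± 1.30 FPKM. Irf7, which amplifies type I interferon production, was lower, at a mean of 4.31 ± 0.685 FPKM. Irf7 and Irf9 came to 2.21 and 4.76 FPKM when the summed exon length of GENCODE replaced the length behind the deposited values.

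Among the sensors of viral RNA, Ddx58 (13.4 ± 0.581 FPKM, SD, n = 2) exceeded Ifih1, which encodes MDA5, the sensor of long double-stranded RNA (a mean of 4.81 ± 0.0120 FPKM). Dhx58, which encodes LGP2, a relative of both without signalling domains, was at 1.86 and 1.49 FPKM. The 3 helicase genes thus differed in level by more than the spread between libraries.

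The ubiquitin-like modifier gene Isg15 (chromosome 4, 156199424 to 156200818, minus strand), one of the most strongly induced genes of the response, was at 3.71 and 3.19 FPKM. These values rest on 52 and 43 counts, or 2.81 CPM (95% exact interval 2.10 to 3.68) and 2.41 CPM (1.75 to 3.25). Usp18, the protease that removes ISG15 from its targets and also restrains the receptor IFNAR, was at 2.68 and 2.31 FPKM. The IFIT genes encode proteins that bind viral RNA lacking normal cap methylation or the complexes that recognise it. Ifit3 was at 5.91 and 5.60 FPKM, Ifit2 at 3.96 and 3.39 FPKM and Ifit1 at 2.86 and 2.28 FPKM, and the ranges of the 3 genes did not overlap. Ifit3 and Ifit1 have close copies, Ifit3b (2.18 FPKM) and Ifit1bl1 (0.388 FPKM), and the sources used here do not say how shared reads were assigned.

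The OAS genes encode enzymes that make the 2-5A signal that activates RNase L. Of the 5 OAS and OAS-like members, 4 lay below the members' median and Oas2 above it. Oas2 was at 4.89 and 3.45 FPKM, and Oas3 at 1.97 and 1.49 FPKM. Oasl2 was at 1.39 and 0.769 FPKM, Oasl1, a relative known in mice to limit translation of Irf7, at 0.786 and 0.595 FPKM, and Oas1a at 0.664 and 0.576 FPKM. Oas2 and Oas3 lay above the other 3 in both libraries. Oas1a had 24 and 20 counts and stands in a cluster of near-identical genes, of which Oas1g was at 0.685 FPKM. Its level is uncertain for that reason.

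Several genes that rise steeply on interferon exposure in many cell types rested on few counts. Rsad2, which encodes the radical enzyme viperin, had 28 and 24 counts (0.399 and 0.356 FPKM). Cmpk2, the nucleotide kinase gene beside it, had 37 and 27 counts (0.626 and 0.475 FPKM). Cxcl10, which encodes a chemokine that attracts activated T cells, had 5 and 11 counts, or 0.270 CPM (95% exact interval 0.0876 to 0.630) and 0.617 CPM (0.308 to 1.10). The guanylate-binding protein genes encode GTPases that attack membranes around intracellular pathogens. Gbp2 was at 1.63 and 1.58 FPKM, and Gbp3, the lowest member, at 0.185 and 0.140 FPKM from 11 and 8 counts. Of the remaining effectors, Parp14, an ADP-ribosyltransferase gene, was at 3.87 and 3.30 FPKM and Xaf1, which encodes an antagonist of the apoptosis inhibitor XIAP, at 2.15 and 1.80 FPKM. Ifi44 was at 0.890 and 1.04 FPKM.

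The antigen-processing members Tap1, Psmb8 and Psmb9 lay close together in deposited FPKM, and Psmb8 and Psmb9 far below their constitutive counterparts. With GENCODE exon lengths Tap1, Psmb8 and Psmb9 lay farther apart, at 2.86, 1.75 and 0.903 FPKM. Tap1, a subunit of the peptide transporter, was at 4.97 and 5.55 FPKM. Psmb8 and Psmb9 encode catalytic subunits that replace the constitutive ones in the immunoproteasome, and were at 4.68 and 5.00 FPKM and at 3.00 and 3.23 FPKM. Psmb10, the further immunoproteasome subunit and not a member of the set, averaged 6.67 FPKM. The constitutive counterparts Psmb5, Psmb6 and Psmb7 averaged 117, 107 and 127 FPKM. The level of Psmb8 was 0.0412 ± 0.000813 of that of Psmb5, the level of Psmb9 0.0292 ± 0.000102 of that of Psmb6, and the level of Psmb10 0.0529 ± 0.00492 of that of Psmb7 (SD, n = 2). With GENCODE exon lengths the 3 ratios were 0.0154, 0.0153 and 0.178, so their size depended on gene length, and each immunoproteasome gene remained below its counterpart.

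Gene length moved other members too. With GENCODE exon lengths, 9 of the 31 members came out more than 1.5 times lower (Irf7, Irf9, Usp18, Oasl2, Ifi44, Tap1, Psmb8, Psmb9 and Cxcl10) and Ifit3 more than 1.5 times higher, at 8.79 FPKM. The exon lengths of GENCODE sum all annotated isoforms. Ddx58 (9.42 FPKM) and Irf1 (9.30 FPKM) then lay below 10 FPKM, and Oasl2 (0.532 FPKM) and Psmb9 (0.903 FPKM) below 1 FPKM. Exons of 11 members overlap those of a gene on the opposite strand, by at most 16.8% of their exon bases, which is the case for Ifi35. The sources used here do not say whether counting used strand.

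Promoter sequences for 27 of the 31 members, all but Dhx58, Usp18, Oas2 and Parp14, were taken from RefSeq on GRCm38.p6, as windows of 250 bases before and 50 after the gene start. The ISRE core was searched as GAAA, any 2 bases and GAAA again, and the GAS core as TTCNNNGAA, each on both strands. The stretches below were chosen to show how the cores are arranged in front of genes at the top, middle and bottom of the range of levels. Capitals mark every ISRE or GAS core, and a core read on the opposite strand appears as a pair of TTTC runs. Each is printed 5′ to 3′ on the strand of its gene and ends 21 bases before the gene start. The Isg15 stretch is chr4:156200839-156200963 (minus strand), that of Ifit1 chr19:34640744-34640868 (plus), that of Ifit3 chr19:34583369-34583508 (plus) and that of Rsad2 chr12:26456473-26456597 (minus). The Oas3 stretch is chr5:120777680-120777795 (minus strand), that of Bst2 chr8:71537493-71537617 (minus) and that of Irf1 chr11:53769869-53769993 (plus).
Isg15: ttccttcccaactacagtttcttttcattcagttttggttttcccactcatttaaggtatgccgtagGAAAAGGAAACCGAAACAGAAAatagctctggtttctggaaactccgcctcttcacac
Ifit1: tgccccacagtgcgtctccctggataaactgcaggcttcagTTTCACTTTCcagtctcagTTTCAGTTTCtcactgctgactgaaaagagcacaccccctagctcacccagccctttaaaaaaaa
Ifit3: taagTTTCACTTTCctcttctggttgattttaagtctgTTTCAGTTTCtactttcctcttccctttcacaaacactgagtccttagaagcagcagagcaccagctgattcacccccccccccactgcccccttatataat
Rsad2: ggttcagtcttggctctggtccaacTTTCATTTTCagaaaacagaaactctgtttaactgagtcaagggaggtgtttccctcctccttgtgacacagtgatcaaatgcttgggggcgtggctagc
Oas3: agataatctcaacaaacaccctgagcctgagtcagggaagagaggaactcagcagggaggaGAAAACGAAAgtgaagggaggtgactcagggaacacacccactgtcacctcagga
Bst2: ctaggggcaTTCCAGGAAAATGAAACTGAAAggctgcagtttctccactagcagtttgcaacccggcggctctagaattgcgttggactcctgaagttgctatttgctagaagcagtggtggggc
Irf1: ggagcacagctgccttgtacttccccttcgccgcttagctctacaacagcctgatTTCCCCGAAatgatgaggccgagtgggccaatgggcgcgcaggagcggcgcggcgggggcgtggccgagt

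Isg15 carried 3 overlapping ISRE cores in a single run, between 78 and 57 bases before its start. Ifit1 and Ifit3 each carried 2 separate cores, Rsad2 and Oas3 a single one. In Bst2, 2 overlapping ISRE cores followed directly on a GAS core that shares bases with the first of them. Irf1 had no ISRE core in its windows but a GAS core 90 to 82 bases before its upstream start. Over the 300-base windows, 13 of the 27 members (48.1%) held an ISRE core, against 3.99% of all 27025 genes with a promoter in the table and 3.41% of the 8349 such genes that reached 1 FPKM here. The GAS core was found in 6 members (22.2%), against 9.55% of all genes. Both were found in Bst2 and Oas1a, and neither in 10 members, Trim25, Irf7, Irf9, Tap1 and Psmb9 among them. A match describes letters in a window and not a bound site, and the members are known interferon targets, so the ISRE share is a property of the list.

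**Figure D2:**
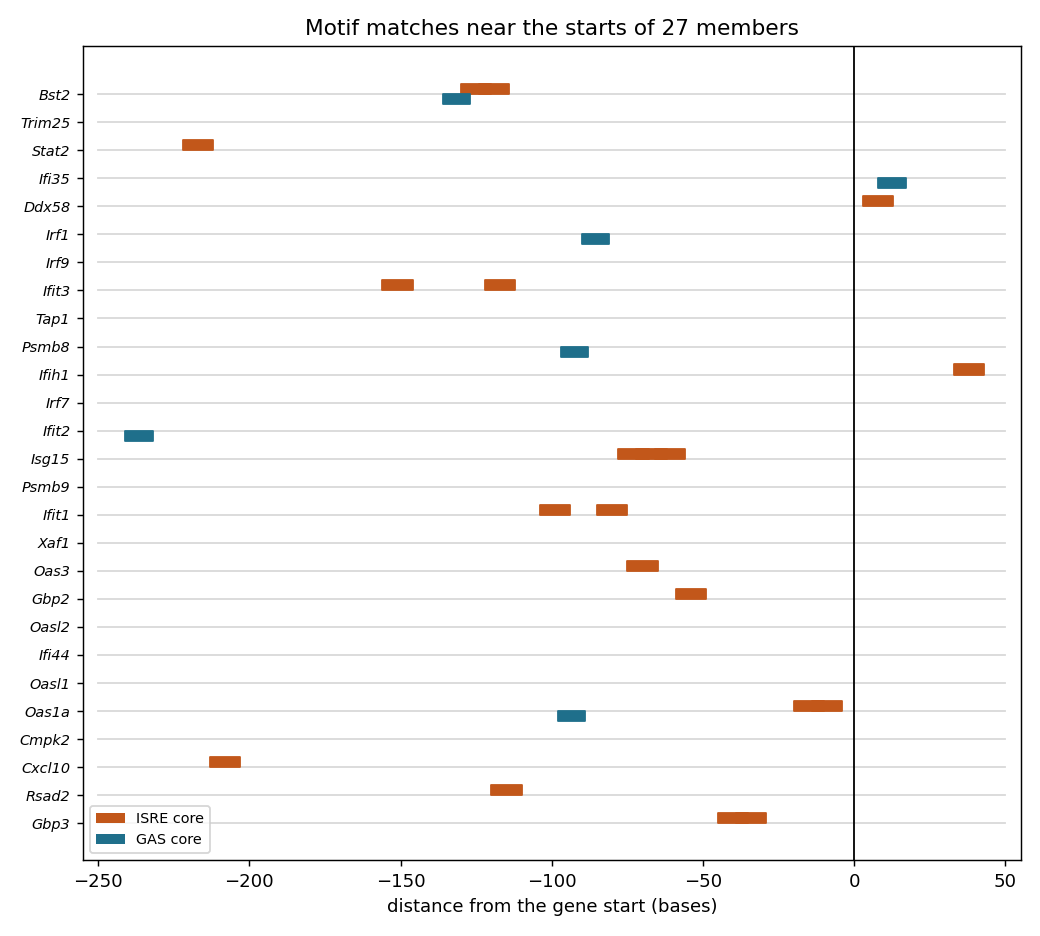
Position of ISRE cores (upper bar) and GAS cores (lower bar) in the 300-base windows of the 27 members with a promoter sequence, by distance in bases from the gene start; genes run from the highest level at the top to the lowest, and matches from alternative starts share a line. Cores occur at every part of the level range, from Bst2 (31.4 FPKM) to Gbp3 (0.163 FPKM).

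Levels of members with and without an ISRE core overlapped widely. The 13 members with an ISRE core had a median of 2.57 FPKM (range 0.163 to 31.4 FPKM), and the 14 without one a median of 3.995 FPKM (range 0.551 to 23.6 FPKM). In each of these groups 3 members reached 10 FPKM. The 6 members with a GAS core had a median of 7.92 FPKM and the 21 without one 2.57 FPKM. These medians describe few genes with wide and overlapping ranges.

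The wider pathway was expressed from the receptor inward, while ligand genes were nearly silent. Of 20 interferon genes 16 had no counts in either library, Ifnb1 and Ifng among them. The highest were Ifnab with 3 and 5 counts, Ifne with 3 and 1 counts and Ifnl3 with 2 and 0 counts. In contrast, all 6 receptor genes were detected. Ifngr1 and Ifngr2, the receptor chains for interferon gamma, averaged 60.3 and 49.2 FPKM, and Il10rb, a chain shared with the interferon lambda receptor, 12.7 FPKM. The type I receptor genes Ifnar1 (9.78 FPKM) and Ifnar2 (9.07 FPKM) lay near the median of 11.2 FPKM of this list. Of the 11 genes of receptor-proximal signalling 5 reached 10 FPKM, namely Jak1 (49.8 FPKM), Ptpn11 (38.0 FPKM), Stat3 (36.5 FPKM), Socs3 (31.3 FPKM) and Tyk2 (13.4 FPKM).

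Of 17 genes of nucleic acid sensing and its adaptors 6 reached 10 FPKM and 8 were below 1 FPKM. Irf3, the factor that switches on Ifnb1, averaged 27.7 FPKM, its kinase gene Tbk1 26.1 FPKM and Mavs, the mitochondrial adaptor of RIG-I and MDA5, 16.8 FPKM. Tmem173 and Mb21d1 were picked out after their low values were seen, and do not stand for DNA sensing genes in general. Of the same list, Zbp1 (0.346 FPKM) and Tlr9 (0.0239 FPKM) were low too, while Trex1 was at 8.46 FPKM. All exon bases of Trex1 (100%) are shared with Atrip on the same strand, so its level is uncertain. Tmem173, which encodes STING, was at 0.301 and 0.169 FPKM, and Mb21d1, which encodes cGAS, at 0.629 and 0.525 FPKM. Both lay below Ddx58 and Mavs by more than the spread between libraries. The 12 genes of the MHC class I pathway had a median of 47.3 FPKM, led by B2m (600.1 FPKM), Calr (528 FPKM) and Pdia3 (280 FPKM).

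Among 49 further interferon-stimulated genes in the table, 9 reached 10 FPKM and 18 were below 1 FPKM, and the median was 3.45 FPKM in the 31 members and 2.67 FPKM in this further list. The highest were Ifitm2 (140.1 FPKM), a membrane protein that blocks virus entry, Lgals3bp (129 FPKM), a secreted glycoprotein, and Irgm1 (32.8 FPKM), an immunity-related GTPase. Ifitm2 shares 40.9% of its exon bases with Gm45717 on the same strand. With GENCODE exon lengths Irgm1 was at 14.7 FPKM, below Ifi27 (24.8 FPKM) and Ifitm3 (18.3 FPKM).

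**Figure D3:**
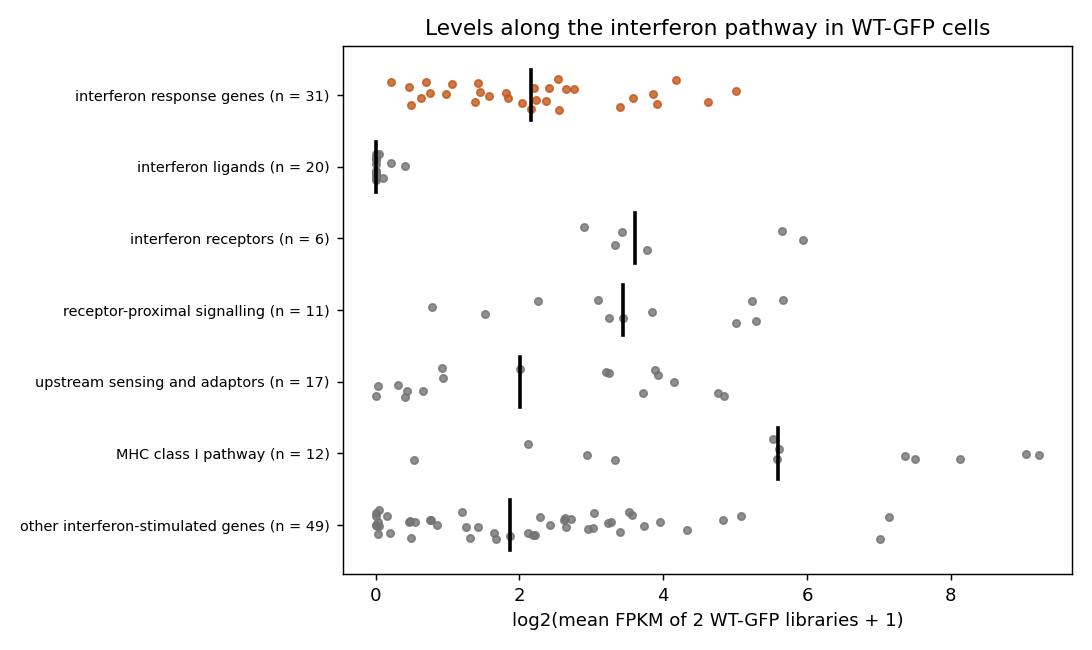
Each point is a gene, at log2 of its mean FPKM over the 2 WT-GFP libraries plus 1; rows are the interferon response genes and 6 lists of the pathway, and black bars are medians. By median, the interferon response genes (3.45 FPKM) lie below receptors (11.2 FPKM) and MHC class I genes (47.3 FPKM). They lie just above upstream sensing genes (3.03 FPKM) and other interferon-stimulated genes (2.67 FPKM), and above ligand genes, of which 16 of 20 had no counts. The ranges of the lists overlap.

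Most members were somewhat lower in replicate 2 than in replicate 1, and few differences exceeded counting error. The test compares the 2 libraries of a single group, not conditions, and used exact binomial probabilities, two-sided, for each gene, with Benjamini-Hochberg adjustment over all 12302 genes whose mean count was at least 10. It called 14.8% of all genes, 8.38% higher and 6.38% lower in replicate 2. Of the 29 members tested 4 were called (13.8%), a share near that of all genes in either direction. All 4 were lower in replicate 2, where the share of all genes called lower was 6.38%. Oas2 had 373 and 253 counts (log2 ratio of replicate 2 to replicate 1 -0.50, adjusted p = 0.000408, exact binomial test). Oasl2 had 81 and 43 counts (-0.85, adjusted p = 0.0158, exact binomial test). Irf1 had 743 and 604 counts (-0.24, adjusted p = 0.021) and Parp14 758 and 622 counts (-0.23, adjusted p = 0.0281), by the same exact test. Gbp3 and Cxcl10 were below the minimum for the test.

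The direction was shared more widely than the calls. The ratio was below 0 for 23 of the 29 members tested (79.3%), with a median of -0.20, against 47.0% of all genes tested and a median of 0.01. With TMM-scaled library sizes it was again below 0 for 23 members, against 51.1% of all genes. Among the 39 tested genes of the further interferon-stimulated list, 30 had a ratio below 0, with a median of -0.13. Of these 39 genes 4 were called lower and 1 higher, against 6.38% and 8.38% of all genes tested. All 5 OAS members, all 4 transcription factors and all 3 IFIT genes had a ratio below 0. The 6 members with a ratio above 0 were Ifi44, Tap1, Psmb9, Psmb8, Bst2 and Ifi35, and none of them was called. Against 6.38% and 8.38% of all genes tested, 6 of the 12 hepatocyte markers were called lower and 1 higher in replicate 2. Their ratios had a median of -0.08 and ranged from -0.37 to 1.45. Small differences pass this test at high counts, as for Alb (36407 and 33275 counts, -0.07). The part of these markers in the pattern was not tested. The labels used here leave unsaid whether separate mice or cultures gave the replicates, so this spread may be technical and p-values refer to these libraries.

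**Figure D4:**
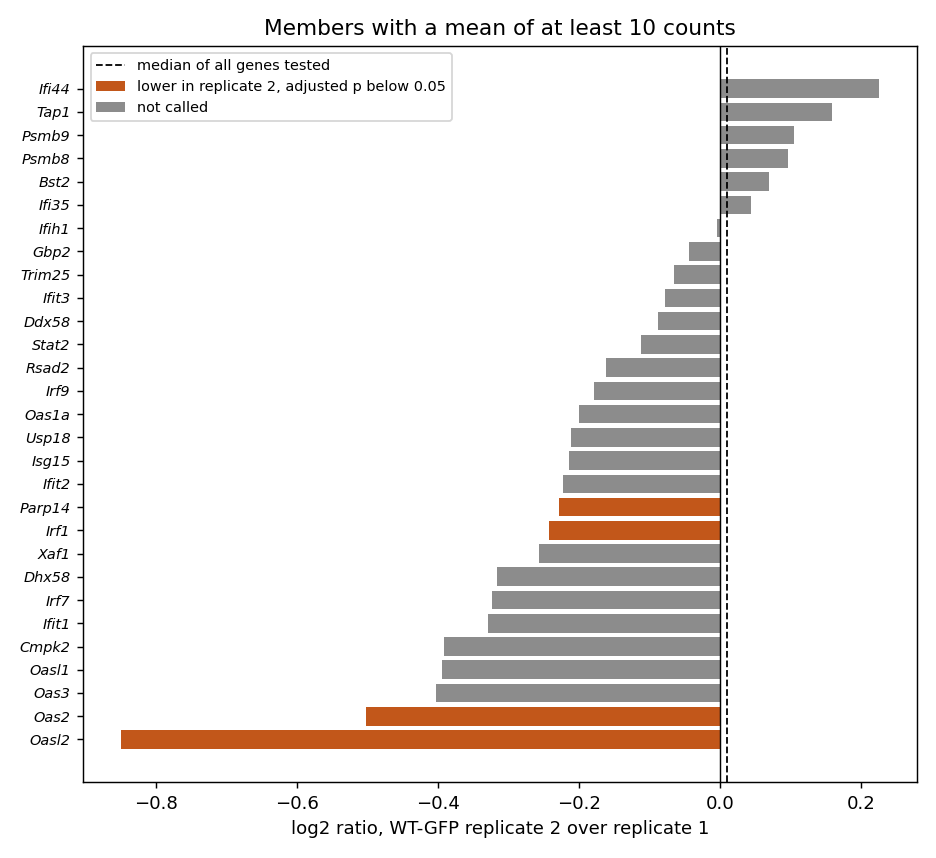
Bars give the log2 ratio of WT-GFP replicate 2 to replicate 1 for the 29 members with a mean of at least 10 counts; coloured bars passed an adjusted p of 0.05 in the exact binomial test and grey bars did not. The dashed line is the median of all 12302 genes tested, 0.01, and 23 bars point below 0, down to Oasl2 at -0.85.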

How the data were processed

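Per the labels' protocols, library preparation used a kit for stranded mRNA. The authors deposited a table of raw counts with 9 numbered columns and a row for each symbol. No label ties 7 of the columns to a sample, and these were not used. For 2 libraries FPKM were deposited too, per the file headers. HISAT2 (2.2.1.0), mm10 and hg38 stand in the submitters' processing notes. For the counter, annotation and strand setting, the sources used here give nothing. Counts divided by column total and FPKM gave a whole gene length, within 0.01 bp, for 100% of genes with a count, so FPKM are the same counts rescaled.

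Means and SD are over 2 libraries. Intervals are 95% exact Clopper-Pearson and, like the floor of 3 counts, cover counting error only. The libraries differed beyond sampling noise (chi-square over genes 5.25 per degree of freedom, with 12301), and each counted as a replicate. Log2 ratios had 0.5 added to each count. The binomial test was tried on simulated counts that held sampling noise only. That trial cannot show how the test behaves on libraries that differ by more. TMM factors came from edgeR 4.0.16, and other steps used scipy 1.17.1. All 31 members matched GENCODE M21 on GRCm38, the assembly of mm10, for positions and exon lengths.

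The members and lists were chosen with earlier results of these data known. Named were all members, the 3 highest genes of each pathway list with fixed pathway genes, and the 2 highest of each marker list. A result this rule would name is not reported here. Alternatives covered the unit of level, gene length, scaling, count filters, thresholds, motifs and windows, and leaving out each library.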

Additional observations from a re-analysis of the deposited data

How the results depend on the processing

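In TPM, which scales all levels up, 13 members reached 10 and 2 were below 1, with a median of 8.95 TPM against 14.7 TPM over all symbols with a count. With GENCODE exon lengths, an alternative chosen after seeing the data, the median was 2.21 FPKM against 4.64 FPKM, and 4 members reached 10 FPKM. At a threshold of 20 FPKM 2 members were counted as high. Below 0.5 and 2 FPKM lay 3 and 12 members. Leaving out each library in turn gave 6 to 7 members at 10 FPKM and a median of 3.23 to 3.71 FPKM. TMM scaling and a minimum of 10 counts moved no level count by over 1.5 times. That minimum left 13.2% of all symbols below 1 FPKM, against 31.3% without it.

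The same 4 members (Irf1, Oas2, Oasl2 and Parp14) were called between the libraries under TMM scaling (13.8% of members, against 14.6% of all genes), without a filter (12.9% against 10.8%) and with a minimum of 50 counts (16.7% against 16.6%). Adding a log2 ratio of at least 0.5 left 2 members, Oas2 and Oasl2 (6.90%), against 188 genes (1.53%). The longer motifs, the ISRE core followed by CT and the GAS core followed by A, were found in 8 and 3 members, against 0.303% and 4.91% of all genes. In CPM, without length correction, the ratios of Psmb8 to Psmb5, Psmb9 to Psmb6 and Psmb10 to Psmb7 were 0.0578, 0.0298 and 0.0886, and with GENCODE exon lengths 0.0154, 0.0153 and 0.178. No paired analysis was possible because the columns tied to samples belong to WT-GFP alone. Depth limits Gbp3 and Cxcl10, the members with the fewest counts, whose levels rest on 5 to 11 counts per library.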

Other observations

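Several members are neighbours in the genome, with levels that lay close together for some and apart for others. By RefSeq positions on GRCm38.p6, the starts of Psmb9 and Tap1 lie 226 bases apart on opposite strands of chromosome 17, and the genes were at 3.12 and 5.26 FPKM. Psmb8 starts 10639 bases from Tap1 and was at 4.84 FPKM. Rsad2 and Cmpk2 start 12763 bases apart on opposite strands of chromosome 12, and were at 0.377 and 0.551 FPKM. Ifit2, Ifit3 and Ifit1 lie in this order on chromosome 19, at 3.68, 5.76 and 2.57 FPKM. Oasl2 and Oasl1 start 26306 bases apart on chromosome 5, and were at 1.08 and 0.690 FPKM. Oas3 and Oas1a start 129866 bases apart on that chromosome, and were at 1.73 and 0.620 FPKM, with Oas2 of the same chromosome at 4.17 FPKM. Gbp3 and Gbp2 on chromosome 3, with starts 60619 bases apart, were farther from each other, at 0.163 and 1.60 FPKM. These genes were picked after their values were seen, and no test was made.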
